A study of Mus musculus with 13 samples.

Results

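Immunoglobulin transcripts of the mouse submandibular gland are described here, gene by gene, in irradiated glands given a neurturin vector, irradiated glands given a control vector, and glands that were not irradiated. All entries of the deposited normalised table whose gene symbol begins with Igh, Igk or Igl were taken, apart from Ighmbp2 and Iglon5, which are not antibody genes. That rule gave 150 genes of the 17957 entries in the table. They comprise 11 constant-region genes, 131 variable genes and 8 joining segments. Within that table the rule used names only. The table itself is not free of the values, since all its entries reach at least 6 reads in some library.

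The PreIR-NTN group (5 libraries) received Cere-120, an adeno-associated virus vector for neurturin (AAV2-NRTN), 10 days before irradiation of the submandibular glands. The PreIR-GFP group (5 libraries) received AAV2-GFP, a vector for green fluorescent protein, at the same time before irradiation. The NonIR group (3 libraries) was not irradiated. The labels are silent on a vector in that group, so irradiation and vector cannot be told apart in either comparison with it. All glands were taken on day 300 after treatment, from mice of 1 year whose strain is given as CH3. Nothing in the labels links a replicate to its own animal, and the p-values therefore measure library-to-library spread, which may be technical. Neurturin is a growth factor of parasympathetic neurons. In whole-gland RNA, fewer cells of a type and less RNA per cell cannot be told apart.

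An antibody is built of paired heavy and light chains. Each B cell joins a variable, a joining and, in heavy chains, a diversity segment into 1 chain and couples it to a constant region, whose gene sets the isotype. Resting B cells carry IgM and IgD, and class switching replaces them with IgG, IgE or IgA. Salivary glands are known for resident plasma cells that make dimeric IgA, held together by the J chain, which the epithelial receptor Pigr carries into saliva.

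The 150 genes lie in the 3 antibody loci of the mouse genome (GRCm38). The heavy chain locus on chromosome 12 held 65 of them between 113254830 and 115981134, the kappa locus on chromosome 6 held 79 between 67609713 and 70726966, and the lambda locus on chromosome 16 held 6 between 19061618 and 19260859. Of 54 heavy variable genes 4 are annotated as pseudogenes, and none of the 74 kappa or 3 lambda variable genes is. Another 279 antibody entries of the annotation stood outside the normalised table and held 504 reads in all, against 157427 reads on the 150 genes. The epsilon chain gene Ighe was among them, with 4 reads over all 13 libraries.

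Several members are near-identical copies, which limits what a single gene's count can mean. The pairs shown here were chosen as examples, each with at least 1 of the more abundant light chain genes, with bases that differ between the copies in capitals, read from the GENCODE M21 transcripts on GRCm38. The last coding exons of the lambda variable genes Iglv1 (chr16:19085022-19085321, minus strand) and Iglv2 (chr16:19260406-19260705, minus strand) were 97.05% identical, with 9 differences in 305 bases and an identical run of 104 bases, and the first 300 bases are printed.
Iglv1: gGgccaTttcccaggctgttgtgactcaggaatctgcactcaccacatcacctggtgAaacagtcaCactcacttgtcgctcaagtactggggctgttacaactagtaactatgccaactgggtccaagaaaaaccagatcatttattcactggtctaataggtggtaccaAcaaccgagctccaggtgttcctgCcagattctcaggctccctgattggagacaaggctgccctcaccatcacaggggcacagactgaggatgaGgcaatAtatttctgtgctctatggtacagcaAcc
Iglv2: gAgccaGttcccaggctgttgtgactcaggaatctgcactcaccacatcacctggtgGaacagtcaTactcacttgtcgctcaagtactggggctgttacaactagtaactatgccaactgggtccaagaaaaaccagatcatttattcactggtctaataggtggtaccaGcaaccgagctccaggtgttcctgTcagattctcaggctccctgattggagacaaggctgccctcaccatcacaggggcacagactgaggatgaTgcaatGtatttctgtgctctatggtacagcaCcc
The coding exons of the lambda constant genes Iglc2 (chr16:19198553-19198852, minus strand) and Iglc3 (chr16:19065382-19065681, minus strand) were 96.5% identical, with 11 differences in 314 bases, of which the first 300 are printed.
Iglc2: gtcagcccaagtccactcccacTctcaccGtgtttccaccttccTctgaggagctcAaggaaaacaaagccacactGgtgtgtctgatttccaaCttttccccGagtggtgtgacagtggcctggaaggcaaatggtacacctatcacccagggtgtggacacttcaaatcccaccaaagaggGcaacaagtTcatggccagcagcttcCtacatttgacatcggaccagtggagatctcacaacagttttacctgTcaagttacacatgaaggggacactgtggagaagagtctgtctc
Iglc3: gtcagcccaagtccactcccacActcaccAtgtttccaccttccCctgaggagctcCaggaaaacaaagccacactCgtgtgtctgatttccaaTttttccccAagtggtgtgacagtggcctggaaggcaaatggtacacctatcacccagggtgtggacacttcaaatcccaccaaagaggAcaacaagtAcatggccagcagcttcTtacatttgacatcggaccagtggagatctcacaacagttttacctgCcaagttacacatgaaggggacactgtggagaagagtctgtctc
Igkv12-41 (chr6:69858420-69858717, minus strand) and Igkv12-44 (chr6:69814631-69814928, minus strand), both among the most abundant kappa variable genes, were 95.6% identical over 298 bases.
Igkv12-41: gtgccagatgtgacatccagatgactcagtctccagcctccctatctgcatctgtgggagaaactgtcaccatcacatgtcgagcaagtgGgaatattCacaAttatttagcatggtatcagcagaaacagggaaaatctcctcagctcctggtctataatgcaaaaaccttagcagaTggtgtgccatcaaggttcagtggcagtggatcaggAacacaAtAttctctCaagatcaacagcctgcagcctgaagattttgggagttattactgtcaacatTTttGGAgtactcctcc
Igkv12-44: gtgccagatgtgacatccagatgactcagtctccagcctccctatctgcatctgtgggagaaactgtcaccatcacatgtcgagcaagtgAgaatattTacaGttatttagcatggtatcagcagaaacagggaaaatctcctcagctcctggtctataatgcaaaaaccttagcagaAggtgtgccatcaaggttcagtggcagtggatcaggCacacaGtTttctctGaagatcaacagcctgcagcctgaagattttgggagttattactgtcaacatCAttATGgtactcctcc
No source used here gives how the authors counted reads that match both copies, so the values of these genes are uncertain one by one.

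The joining segments are short, and in the 13 libraries together each collected between 38 and 74 reads. Ighj2 (chr12:113429468-113429515, minus strand) and Igkj1 (chr6:70722562-70722599, plus strand) are shown because they were the joining segments that passed the filter on low counts. Capitals mark the stretch that matches TGGGG, any 4 bases and GG in the heavy segment, and TTCGG, any 4 bases and GG in the kappa segment, letters that encode the turn with which a joining segment closes the antigen-binding loop. The motif was searched on both strands, and all 4 heavy and all 4 kappa segments hold it on the coding strand and 0 on the other.
Ighj2: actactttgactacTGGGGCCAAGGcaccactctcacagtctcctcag
Igkj1: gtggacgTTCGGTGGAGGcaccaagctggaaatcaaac

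Igha, the alpha heavy chain constant gene (chr12:113254830-113260236), and Igkc, the kappa constant gene (chr6:70726435-70726966), together held 71.8% of the reads on the 150 genes, pooled over libraries. Their share was 34.4% in PreIR-NTN 2 and 57.8% in PreIR-NTN 1, 67.0% to 75.7% in PreIR-NTN 3 to 5, 63.3% to 76.0% in PreIR-GFP libraries and 62.6% to 69.5% in NonIR libraries. Of the pooled reads, constant genes held 79.1% and variable genes 20.6%. Per kilobase of annotated exon, the mean level over the 13 libraries was 562 CPM (TMM-scaled read counts, with all libraries brought to the same size) for Igkc and 123 CPM for Igha. On the same scale Iglv1 stood at 36.1, the lambda constant gene Iglc1 at 35.1, the kappa variable gene Igkv6-15 at 33.9 and Ighm, the mu constant gene, at 19.0 CPM per kilobase. The 150 genes took 0.0114% to 0.0880% of all reads in PreIR-NTN libraries, 0.0273% to 0.341% in PreIR-GFP libraries and 0.0302% to 0.129% in NonIR libraries.

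Igha stood at 43.9, 15.5, 162, 116 and 368 CPM in PreIR-NTN libraries 1 to 5, at 1101, 396, 649, 103 and 638 CPM in PreIR-GFP libraries 1 to 5, and at 101, 481 and 101 CPM in NonIR libraries 1 to 3. All groups overlap: PreIR-GFP 4 lay below 3 PreIR-NTN libraries, and NonIR 2 lay far above the other NonIR libraries. The fitted log2 fold change was −2.03 in PreIR-NTN against PreIR-GFP (SE 0.87, edgeR adjusted p = 0.803), −0.69 in PreIR-NTN against NonIR (SE 0.95, adjusted p = 0.896) and 1.34 in PreIR-GFP against NonIR (SE 1.02, adjusted p = 0.767). The 3 comparisons share samples pairwise, so they do not support each other.

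Igkc stood at 87.5, 17.7, 186, 118 and 421 CPM in PreIR-NTN libraries, at 724, 452, 570, 92.8 and 546 CPM in PreIR-GFP libraries, and at 94.5, 475 and 103 CPM in NonIR libraries. Its order of libraries was close to that of Igha, and its log2 fold changes were −1.52 (edgeR adjusted p = 0.857), −0.43 (0.938) and 1.09 (0.799) in the same 3 comparisons. The 6 libraries with the most Igha were also the 6 with the most Igkc and the 6 with the most Jchain, the joining chain of IgA and IgM polymers.

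Ighm and Ighd, the constant genes of the receptor on resting B cells, followed another order. Ighm stood at 44.1, 44.2, 10.7, 21.0 and 18.5 CPM in PreIR-NTN libraries, at 34.0, 58.9, 22.7, 38.6 and 79.0 CPM in PreIR-GFP libraries, and at 37.7, 22.1 and 35.4 CPM in NonIR libraries. Its highest library was 7.36 times its lowest, against 70.9 times for Igha, 40.9 times for Igkc and 94.8 times for Jchain. Of the 6 libraries with the most Ighm, 2 were among the 6 with the most Igha, while 5 were among the 6 with the most Ighd and 5 among those with the most Ms4a1, which encodes CD20 of B cells. The overlap was also 5 for the epithelial gene Pigr, and 4 for the B cell gene Cd79a. For Igha the same overlap was 4 with Cd79a, 3 with Ms4a1 and 2 with Pigr, so Cd79a did not tell the 2 orders apart. Ighd (chr12:113406604-113416324) stood at 1.00, 1.82, 0.0814, 0.434 and 0.317 CPM in PreIR-NTN libraries, at 0.507, 0.923, 0.625, 1.75 and 2.61 CPM in PreIR-GFP libraries, and at 0.478, 0.337 and 0.653 CPM in NonIR libraries. It rests on 174 reads, 1 to 44 a library, and its groups overlap. The log2 fold changes were −0.77 for Ighd (SE 0.57, edgeR adjusted p = 0.916) and −0.75 for Ighm (SE 0.43, adjusted p = 0.876) in PreIR-NTN against PreIR-GFP.

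**Figure D1:**
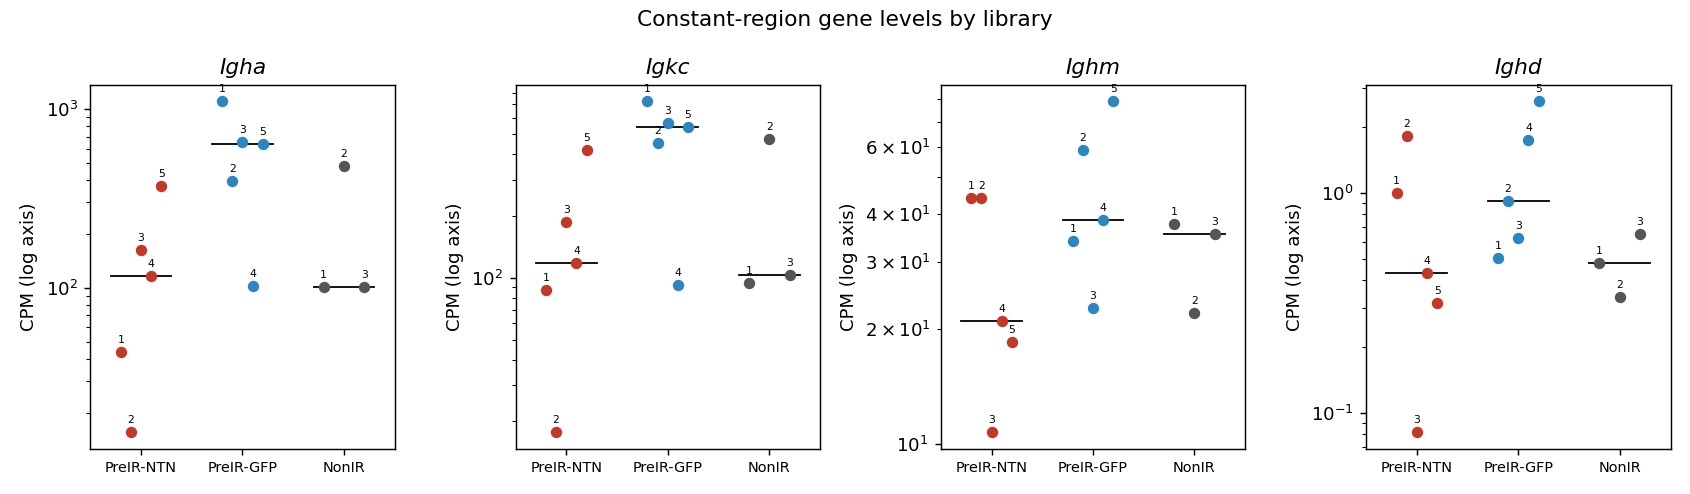
Level of Igha, Igkc, Ighm and Ighd in each library (CPM, log axis), with points numbered by replicate and a line at the group median. Igha and Igkc order the libraries in a similar way, with PreIR-GFP 1 highest and PreIR-NTN 2 lowest, while Ighm and Ighd peak in PreIR-GFP 5.

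The IgG constant genes were scarce, at 50 reads for Ighg1, 162 for Ighg2b, 200 for Ighg2c and 288 for Ighg3 over all libraries. Ighg2c stood at 0.430, 0.234, 0.325, 0.290 and 0.554 CPM in PreIR-NTN libraries, at 3.04, 3.23, 0.781, 0.135 and 2.61 CPM in PreIR-GFP libraries, and at 0.820, 0.759 and 0.571 CPM in NonIR libraries. Every PreIR-NTN library lay below every NonIR library, and 4 of 5 PreIR-GFP libraries lay above every PreIR-NTN library. The separation from NonIR was narrow, since PreIR-NTN 5 at 0.554 CPM and NonIR 3 at 0.571 CPM had 7 Ighg2c reads each. The log2 fold change of Ighg2c was −2.42 in PreIR-NTN against PreIR-GFP (SE 0.60, edgeR adjusted p = 0.371), −0.98 in PreIR-NTN against NonIR (SE 0.75, adjusted p = 0.795) and 1.44 in PreIR-GFP against NonIR (SE 0.65, adjusted p = 0.549). Ighg2b stood lower in PreIR-NTN than in 4 of 5 PreIR-GFP libraries, but overlapped with NonIR, with 0.0716 to 0.469 CPM in PreIR-NTN libraries, 0.202 to 3.33 CPM in PreIR-GFP libraries and 0 to 0.615 CPM in NonIR libraries, and a log2 fold change of −2.37 in PreIR-NTN against PreIR-GFP (SE 0.63, edgeR adjusted p = 0.420) and of 0.11 in PreIR-NTN against NonIR (SE 0.91, adjusted p = 0.990).

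Ighg1 and Ighg3 were uneven within groups. Ighg1 had 0 reads in all PreIR-NTN libraries, which allows up to 3 reads, against 26 reads from 3 PreIR-GFP libraries and 24 reads from NonIR 1 alone. With the floor of 3 reads over the PreIR-NTN group it was at least 8.23-fold lower than in PreIR-GFP (edgeR adjusted p = 0.828). Ighg3 stood at 6.52 CPM in PreIR-NTN 1 and at 0 to 0.644 CPM in the other PreIR-NTN libraries. It stood at 8.70 CPM in PreIR-GFP 2, at 0.135 to 0.772 CPM in the other PreIR-GFP libraries, and at 0.752, 0 and 1.39 CPM in NonIR libraries. Its log2 fold change in PreIR-NTN against PreIR-GFP was −0.44 (SE 1.35, edgeR adjusted p = 0.998), −2.94 without PreIR-NTN 1 and 1.997 without PreIR-GFP 2.

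Among the lambda constant genes, Iglc1 stood at 1.05 to 16.2 CPM in PreIR-NTN libraries, at 7.34 to 68.7 CPM in PreIR-GFP libraries and at 3.83 to 40.3 CPM in NonIR libraries. Its log2 fold change in PreIR-NTN against PreIR-GFP was −1.69 (SE 0.92, edgeR adjusted p = 0.865), that of Iglc2 −1.15 (0.843) and that of Iglc3 0.07 (0.998), which turned to −0.048 with no TMM scaling. Lambda constant reads made up 4.15% to 14.9% of light chain constant reads in PreIR-NTN libraries, 2.71% to 9.70% in PreIR-GFP libraries and 6.43% to 9.84% in NonIR libraries. The highest lambda share was in PreIR-NTN 2 (95% Wilson interval 11.6% to 19.0%) and the lowest in PreIR-GFP 5 (2.40% to 3.06%), so libraries of the same tissue differed by more than counting error.

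The isotype make-up varied widely between libraries of the same group. Igha made up 45.7%, 24.7%, 93.4%, 84.0% and 94.8% of heavy constant reads in PreIR-NTN libraries, 96.4%, 84.3%, 96.2%, 71.4% and 87.9% in PreIR-GFP libraries, and 70.7%, 95.4% and 72.6% in NonIR libraries. The group means were 68.5% ± 31.6 in PreIR-NTN (SD, n = 5), 87.2% ± 10.3 in PreIR-GFP (SD, n = 5) and 79.6% ± 13.7 in NonIR (SD, n = 3). In PreIR-NTN 2 the larger part was Ighm, at 70.3% (95% Wilson interval 67.5% to 73.0%), and in PreIR-NTN 1 Ighm and Igha were level, at 45.9% and 45.7%. Those 2 libraries had the lowest Igha level of all and an Ighm level above the NonIR range, and their B cell marker sum (7 genes, Ms4a1 among them) was 7.16 and 8.96 CPM, against 2.24 to 2.85 CPM in PreIR-NTN 3 to 5. IgG genes together made up 7.31% of heavy constant reads in PreIR-NTN 1 and 0.201% to 2.95% in the other libraries. Among switched isotypes (IgA and IgG) the Igha share was 86.2% to 99.7% in PreIR-NTN, 96.6% to 99.6% in PreIR-GFP and 96.4% to 99.8% in NonIR libraries.

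**Figure D2:**
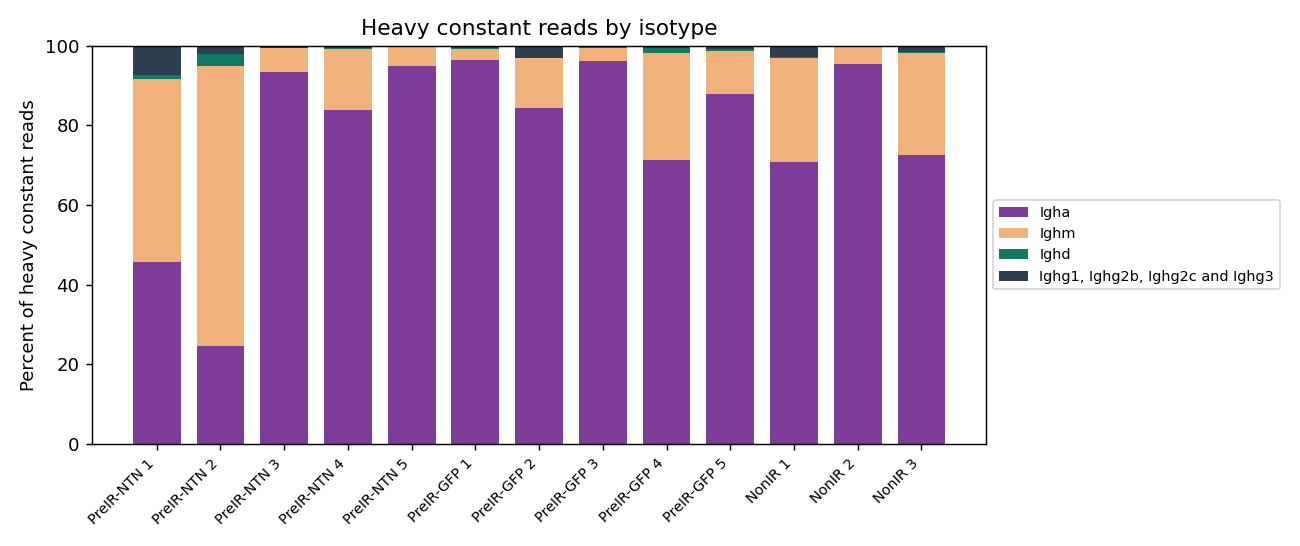
Percent of heavy constant reads (vertical axis) on Igha, Ighm, Ighd and the 4 IgG genes in each library. Igha is the larger part in every library except PreIR-NTN 1 and 2, where Ighm takes 45.9% and 70.3%.

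Summed over the 11 constant genes, the level was 190, 83.7, 370, 273 and 828 CPM in PreIR-NTN libraries, 1941, 946, 1274, 246 and 1287 CPM in PreIR-GFP libraries, and 244, 1028 and 253 CPM in NonIR libraries. The log2 ratio of geometric means was −1.82 for PreIR-NTN against PreIR-GFP, −0.59 for PreIR-NTN against NonIR and 1.24 for PreIR-GFP against NonIR. The SD of the log2 sums was 1.22 within PreIR-NTN, 1.18 within NonIR and smaller than both within PreIR-GFP. The first ratio is thus larger than the SD of each group, and the second is smaller than the SD of each group. PreIR-GFP 4 lay inside the PreIR-NTN range, and without NonIR 2 the ratio of PreIR-NTN to NonIR turned to 0.10. For PreIR-GFP against NonIR it was 1.92 without NonIR 2 and 0.89 without NonIR 1, and 2.33 as a ratio of medians. Variable genes summed to 12.6 to 212 CPM in PreIR-NTN, 61.4 to 452 CPM in PreIR-GFP and 64.2 to 344 CPM in NonIR libraries.

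Across all 150 genes, PreIR-NTN had the lower mean CPM than PreIR-GFP for 145 genes and the higher mean for 5. All of these 5, the kappa variable genes Igkv8-34, Igkv6-13, Igkv8-18 and Igkv2-109 and the lambda constant gene Iglc3, were highest in PreIR-NTN 5. PreIR-NTN was below NonIR for 122 genes and above it for 28, and PreIR-GFP was above NonIR for 128 and below it for 22. These counts share libraries, and the genes share the same cells, so they are not independent.

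After the filter on low counts 92 of the 150 genes were tested (11 constant, 79 variable, 2 joining), and the other 58, with up to 123 reads each, were not. No member passed the threshold (edgeR adjusted p under 0.05) in any comparison. Of all genes tested, 0.0204% were called in PreIR-NTN against PreIR-GFP, 0.0204% in PreIR-NTN against NonIR and 0.034% in PreIR-GFP against NonIR. The lowest adjusted p of a member was 0.116, 0.401 and 0.351 in these comparisons. In PreIR-NTN against PreIR-GFP, DESeq2 called 8 members, and edgeR called 5 without PreIR-GFP 4 and 1 without NonIR 2. Of all genes, the calls in those fits were 35 of 19989, 11 of 14644 and 4 of 15202. In each comparison with NonIR, DESeq2 called 0 members, against 30 of 9354 genes for PreIR-NTN and 57 of 13608 for PreIR-GFP.

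In PreIR-NTN against PreIR-GFP, 62 of the 92 tested members had an unadjusted p under 0.05 with a lower level, and 0 with a higher level. Among all genes tested those shares were 3.73% and 2.36%, against 67.4% and 0% of the members. The members passed the filter partly through the libraries where they are high. With no filter, 92 of 150 had an unadjusted p under 0.05 with a lower level, against 1418 of 28532 genes in either direction. The 150 were already limited to the deposited normalised table, whose entries all reach at least 6 reads in some library. That fit is therefore not free of such selection. The median log2 fold change of the tested members was −2.12, and that of all genes was −0.01. In all, 88 members stood below 0 and 4 above it, against 52.7% and 47.3% of all genes. Of the constant genes 10 of 11 stood below 0 (median −1.52), and of the variable genes 76 of 79 (median −2.19). All 22 tested heavy variable genes stood below 0, 21 of them at an unadjusted p under 0.05, and 36 of 55 kappa variable genes did so. Of the joining segments, Ighj2 had a log2 fold change of −2.31 (SE 0.76, edgeR adjusted p = 0.627) and Igkj1 −0.59 (SE 0.91, adjusted p = 0.991). The filter was rerun when libraries were left out. The count of 62 came to 28 of 74 members tested without PreIR-GFP 1, 35 of 78 without PreIR-GFP 5 and 39 of 90 without PreIR-NTN 2. It was 40 with limma-voom, 22 of 66 members tested without PreIR-GFP 1 and 2 together, and 27 of 48 members tested in a fit to these 2 groups alone. Those fits had 804 of 14727, 686 of 14405 and 818 of 13858 genes at an unadjusted p under 0.05, in either direction. Without PreIR-GFP 1, PreIR-GFP 5 or PreIR-NTN 2, 874 of 14511, 965 of 14591 and 930 of 14598 genes had an unadjusted p under 0.05 in either direction.

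The variable genes with the lowest p in that comparison were Igkv14-111, Ighv1-5 and Igkv8-19. Igkv14-111 (chr6:68256389-68256869) stood at 0.0716, 0, 0.0814, 0.145 and 0.238 CPM in PreIR-NTN libraries, at 1.45, 0.989, 1.56, 0.269 and 2.85 CPM in PreIR-GFP libraries, and at 1.30, 0.590 and 0.163 CPM in NonIR libraries. Its 142 reads gave a log2 fold change of −3.71 in PreIR-NTN against PreIR-GFP (SE 0.70, edgeR adjusted p = 0.116), and every PreIR-NTN library lay below every PreIR-GFP library. Ighv1-5 (chr12:114513330-114513807) stood at 0.430, 0.293, 0.163, 0.362 and 0 CPM in PreIR-NTN libraries, at 2.61, 2.44, 1.64, 0.808 and 2.43 CPM in PreIR-GFP libraries, and at 0.342, 2.61 and 0.653 CPM in NonIR libraries, with a log2 fold change of −2.92 (SE 0.59, edgeR adjusted p = 0.144). Igkv8-19 (chr6:70340876-70341453) stood at 0 to 0.396 CPM in PreIR-NTN libraries, at 0.724 to 6.99 CPM in PreIR-GFP libraries and at 0.337 to 0.615 CPM in NonIR libraries, with a log2 fold change of −3.82 (SE 0.76, edgeR adjusted p = 0.144). Together with Igkv4-61 and Igkv6-23 these were the 5 members, 5.43% of those tested, whose PreIR-NTN and PreIR-GFP libraries did not overlap, against 0.72% of all genes that were lower without overlap. No member was higher without overlap, against 0.394% of all genes.

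Against NonIR, 12 of the 92 members in PreIR-NTN had an unadjusted p under 0.05 with a lower level (13%, against 3.69% of all genes) and 0 with a higher level (4.28% of all genes). Ighv5-16 and Ighg2c were lower without overlap, 2.17% of the members against 3.31% of all genes, and 0 members were higher without overlap, against 3.22% of all genes. In all, 79 members stood below 0 and 13 above it, against 49.5% and 50.5% of all genes. Lowest in p were Igkv3-1, at −3.96 (SE 1.10, edgeR adjusted p = 0.401), Igkv14-111, at −2.69 (adjusted p = 0.435), and Ighv1-5, at −2.16 (adjusted p = 0.459). Igkv3-1 stood at 0 to 0.215 CPM in PreIR-NTN libraries and at 4.72, 1.43 and 0.0816 CPM in NonIR libraries. The median log2 fold change of the tested members was −1.15, and −0.02 without NonIR 2, the NonIR library rich in Igha. The count of 12 came to 25 of 119, 3 of 114 and 22 of 119 members tested without NonIR 1, 2 and 3. Without PreIR-NTN 5 it came to 23 of 89. Over all genes, 758 of 15188, 1083 of 15202, 1246 of 15223 and 894 of 14617 had an unadjusted p under 0.05 in these fits, in either direction. The count of 12 also depended on the method. It was 3 with limma-voom, and 1 of 42 members tested in a fit to these 2 groups alone. Those fits had 1060 of 14727 and 1260 of 14033 genes at an unadjusted p under 0.05, in either direction.

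In PreIR-GFP against NonIR, 10 of the 92 members had an unadjusted p under 0.05 with a higher level (10.9%, against 5.35% of all genes) and 0 with a lower level (3.43% of all genes). Igkv8-19 was the 1 member higher without overlap, 1.09% of the members against 2.87% of all genes, and 0 were lower without overlap, against 2.27% of all genes. In all, 12 members stood below 0 and 80 above it, against 47.3% and 52.7% of all genes. Igkv4-55 stood at 0.202 to 4.78 CPM in PreIR-GFP libraries and at 0.245 to 0.337 CPM in NonIR libraries, a log2 fold change of 2.94 (SE 0.90, edgeR adjusted p = 0.351). Ighv3-4 had 3.00 (adjusted p = 0.375) and Ighv10-3 3.67 (adjusted p = 0.399), with 1.45 and 6.52 CPM in PreIR-GFP 1, their highest library. Ighg2b was 2.48 on this scale (adjusted p = 0.360). The median of the tested members was 1.03, and 2.08 without NonIR 2, 0.69 without NonIR 3 and 0.68 without PreIR-GFP 1 and 2 together. The count of 10 came to 34 of 114 members tested without NonIR 2 and 19 of 90 without PreIR-GFP 4. Without PreIR-GFP 1, 2 and 5 it came to 5 of 74, 5 of 86 and 4 of 78. Over all genes, 1045 of 15202, 1649 of 14644, 1395 of 14511, 1019 of 14598 and 1175 of 14591 had an unadjusted p under 0.05 in these fits, in either direction. The count of 10 also depended on the method. It was 1 with limma-voom, and 3 of 66 members tested without PreIR-GFP 1 and 2 together. Those fits had 1127 of 14727 and 1145 of 14405 genes at an unadjusted p under 0.05, in either direction.

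**Figure D3:**
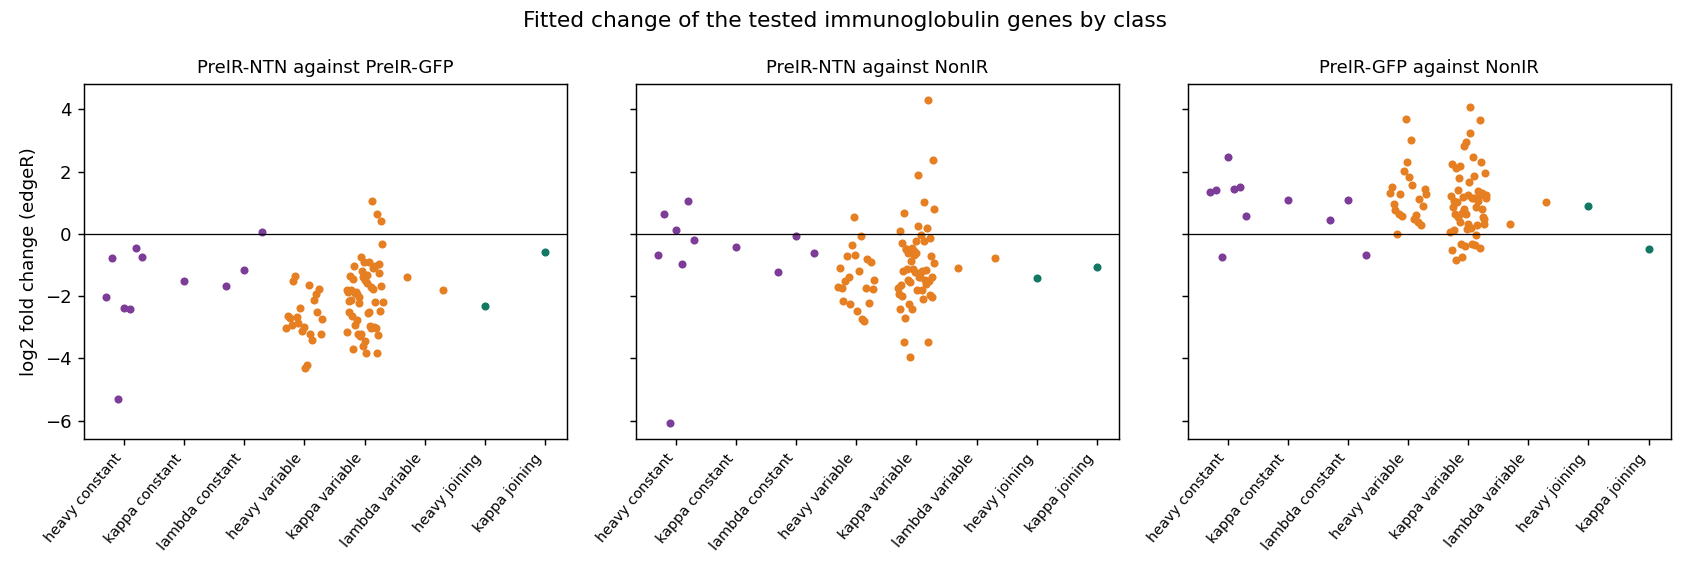
Fitted log2 fold change (edgeR, vertical axis) of each of the 92 tested members by class, 1 point a gene, in the 3 comparisons. In PreIR-NTN against PreIR-GFP 88 points lie below 0 and 4 above it, in PreIR-NTN against NonIR 79 below and 13 above, and in PreIR-GFP against NonIR 12 below and 80 above; the lowest point in the first 2 panels is Ighg1, which had 0 reads in PreIR-NTN.

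Which variable genes were used differed from library to library. Iglv1 led the variable genes in 6 of 13 libraries and Igkv6-15 in 2, while Igkv4-59 led in PreIR-NTN 1, Ighv6-3 in PreIR-NTN 2, Igkv8-34 in PreIR-NTN 5, Igkv12-41 in PreIR-GFP 2 and Igkv3-1 in NonIR 1. Among heavy variable genes Ighv6-3 led in 10 libraries. Ighv6-3 took 17.7% of the variable reads of PreIR-NTN 2 (38 of 215 reads) and 1.35% to 6.03% of those of the other libraries. Igkv8-34 took 12.8% in PreIR-NTN 5 and 0% to 5.998% elsewhere, and in level it stood at 27.2 CPM in PreIR-NTN 5, at 19.99 CPM in PreIR-GFP 3 and at 0 to 5.21 CPM in the other libraries.

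Iglv1 stood at 3.44, 0.410, 5.61, 12.7 and 15.4 CPM in PreIR-NTN libraries, at 37.0, 11.995, 30.8, 7.81 and 10.8 CPM in PreIR-GFP libraries, and at 3.896, 37.2 and 6.69 CPM in NonIR libraries. In PreIR-NTN against PreIR-GFP its log2 fold change was −1.40 (SE 0.87, edgeR adjusted p = 0.892). Its near copy Iglv2 stood at 0 to 1.43 CPM in PreIR-NTN libraries, 0.673 to 3.86 CPM in PreIR-GFP libraries and 0.410 to 1.63 CPM in NonIR libraries. Of the other abundant variable genes, log2 fold changes in PreIR-NTN against PreIR-GFP were −2.75 for Ighv7-3, −2.11 for Igkv12-44, −1.79 for Ighv6-3, −1.77 for Igkv6-17 and −1.68 for Igkv8-30. They were −1.36 for Igkv12-41, −1.26 for Igkv8-27, −1.09 for Igkv6-15 and 0.41 for Igkv8-34, which came to −1.54 without PreIR-NTN 5. The edgeR adjusted p of these 9 genes lay between 0.627 and 0.998.

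**Figure D4:**
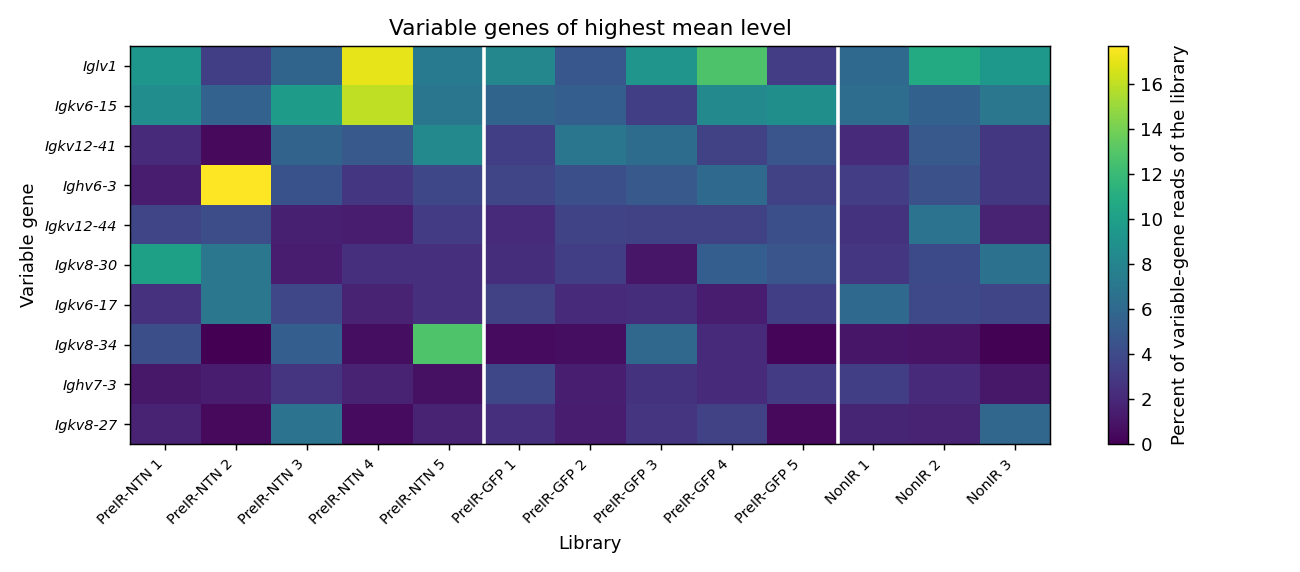
Percent of each library's variable-gene reads (colour) on the 10 variable genes with the highest mean level, genes down the page and libraries across, white lines between groups. Ighv6-3 stands out at 17.7% in PreIR-NTN 2, on 38 of 215 reads. Iglv1 reached 17.0% in PreIR-NTN 4, 12.7% in PreIR-GFP 4 and 10.8% in NonIR 2. Igkv8-34 reached 12.8% in PreIR-NTN 5.

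Some variable genes came mostly from 1 library. Of 96 variable genes with at least 50 reads, 7 had over 50% of their summed CPM in a single library, and the median gene had 31.2% in its highest library. Iglv3 had 79.3% in PreIR-GFP 2 (6.52 CPM there) and Ighv7-1 75.4% in the same library. Igkv8-18 had 60.0% and Igkv6-13 53.5% in PreIR-NTN 5, Igkv4-68 54.5% and Ighv2-6-8 53.6% in PreIR-GFP 3, and Ighv10-3 52.8% in PreIR-GFP 1. Of the 131 variable genes, 56 were highest in PreIR-GFP 1, 21 in PreIR-GFP 5, 17 in PreIR-GFP 3 and 16 in NonIR 2, and 4 in PreIR-NTN 5 and 2 in PreIR-NTN 3.

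Kappa variable reads were spread over fewer genes in PreIR-NTN libraries. The effective number of kappa genes (the inverse Simpson index, corrected for depth, which equals the gene count when all genes have equal reads) was 15.2, 17.6, 19.8, 11.7 and 14.5 in PreIR-NTN libraries, 32.0, 25.0, 24.4, 22.6 and 23.0 in PreIR-GFP libraries, and 22.8, 25.9 and 23.2 in NonIR libraries. The group means were 15.8 ± 3.09 in PreIR-NTN (SD, n = 5), 25.4 ± 3.81 in PreIR-GFP (SD, n = 5) and 24.0 ± 1.68 in NonIR (SD, n = 3), and every PreIR-NTN library lay below every library of the other groups. No p is given, since this is a score over genes chosen with earlier results known. At an equal depth of 115 reads, the expected number of kappa genes detected was 32.1 to 35.4 in PreIR-NTN, 37.2 to 42.5 in PreIR-GFP and 36.0 to 39.2 in NonIR libraries, again without overlap between PreIR-NTN and the rest. Kappa variable reads numbered 115 to 2143 in PreIR-NTN libraries, 599 to 4023 in PreIR-GFP libraries and 601 to 2855 in NonIR libraries. PreIR-NTN 5 had 2143 of these reads and 14.5 genes, and PreIR-GFP 4 had 599 reads and 22.6 genes. Apart from the count at equal depth, the part of depth in these values was not tested. The leading kappa gene took 12.7% to 24.3% of kappa variable reads in PreIR-NTN libraries, 9.06% to 12.7% in PreIR-GFP libraries and 9.63% to 10.6% in NonIR libraries. It was Igkv6-15 in 6 libraries, and in PreIR-NTN libraries it was Igkv4-59 in library 1, Igkv6-15 in libraries 3 and 4 and Igkv8-34 in library 5, while Igkv6-17 and Igkv8-30 tied at 15 reads in library 2.

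Heavy variable genes did not show that separation. Their effective number was 13.8, 4.56, 9.53, 14.2 and 7.64 in PreIR-NTN libraries, 16.2, 13.4, 11.5, 8.55 and 16.6 in PreIR-GFP libraries, and 15.7, 11.5 and 15.3 in NonIR libraries. The means were 9.95 ± 4.11 in PreIR-NTN (SD, n = 5), 13.2 ± 3.35 in PreIR-GFP (SD, n = 5) and 14.2 ± 2.35 in NonIR (SD, n = 3), so the differences are about the size of the spread, and all groups overlap. Only 66 to 330 heavy variable reads were counted in PreIR-NTN libraries, against 187 to 1769 in PreIR-GFP and 169 to 771 in NonIR libraries.

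The ratio of variable to constant reads separated the non-irradiated glands from the others for kappa. Kappa variable genes held 31.4, 38.1, 40.6, 41.5 and 40.3 reads per 100 Igkc reads in PreIR-NTN libraries, 39.4, 38.7, 40.0, 43.5 and 43.8 in PreIR-GFP libraries, and 47.2, 50.6 and 47.5 in NonIR libraries. Every library of the irradiated groups lay below every NonIR library. As a share of kappa reads the closest libraries were PreIR-GFP 5 at 30.4% (95% Wilson interval 29.7% to 31.2%) and NonIR 1 at 32.1% (30.1% to 34.1%), whose intervals overlap. For heavy chains the ratio was 4.92 to 10.1 variable reads per 100 constant reads in PreIR-NTN, 8.77 to 11.7 in PreIR-GFP and 9.95 to 12.9 in NonIR libraries, with overlap throughout. For lambda chains it was 26.4 to 88.3 in PreIR-NTN, 51.5 to 110 in PreIR-GFP and 66.3 to 80.0 in NonIR libraries. Over all chains it was 15.05 to 27.19, 23.29 to 26.33 and 26.25 to 33.46 in the same order. Groups overlapped in both.

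**Figure D5:**
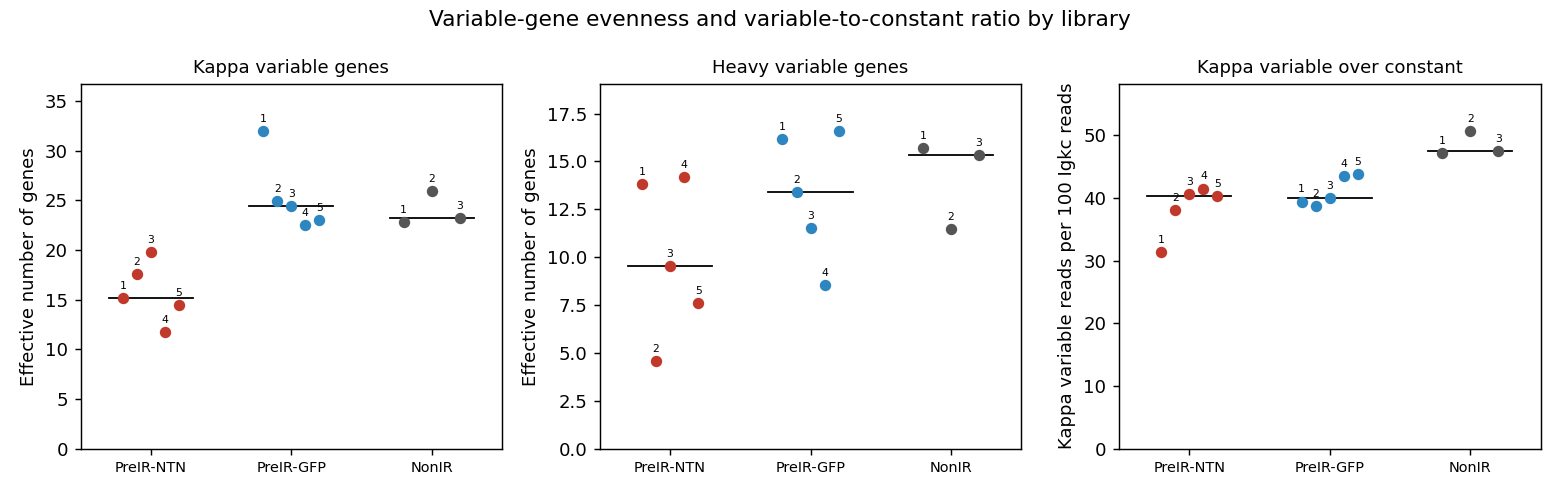
Effective number of kappa variable genes (left), of heavy variable genes (middle) and kappa variable reads per 100 Igkc reads (right) in each library, with points numbered by replicate and a line at the group median. The 5 PreIR-NTN libraries lie between 11.7 and 19.8 in the left panel, below all others, and the 3 NonIR libraries lie between 47.2 and 50.6 in the right panel, above all others.

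Jchain, whose product links IgA dimers, stood at 39.2, 12.8, 162, 75.7 and 222 CPM in PreIR-NTN libraries, at 1210, 359, 430, 67.5 and 603 CPM in PreIR-GFP libraries, and at 78.3, 451 and 67.0 CPM in NonIR libraries, with a log2 fold change of −2.38 in PreIR-NTN against PreIR-GFP (SE 0.92, edgeR adjusted p = 0.748). Mzb1, a chaperone of antibody assembly, had −1.47 (adjusted p = 0.698), Tnfrsf13b, a survival receptor of the B lineage, −1.25 (0.738) and the surface receptor Slamf7 −1.07 (0.738). Of 16 plasma cell genes 14 were tested, 0 passed the threshold in any comparison, and in PreIR-NTN against PreIR-GFP 10 stood below 0, 4 of them at an unadjusted p under 0.05 (median −0.18, all genes −0.01). Of all genes tested, 52.7% stood below 0 in that comparison and 3.73% were lower at an unadjusted p under 0.05. Several of that list, such as Xbp1 at 172 to 278 CPM and Derl3 at 134 to 240 CPM, were abundant in every library, and secretory epithelium is known to use them too.

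Of 20 B cell genes 13 were tested, 0 passed the threshold in any comparison, and 11 stood below 0 in PreIR-NTN against PreIR-GFP, 5 of them at an unadjusted p under 0.05 (median −0.39), against the 52.7% and 3.73% of all genes. In PreIR-NTN against NonIR 8 of the 13 stood above 0, against 50.5% of all genes (median 0.04). Cd79a, a signalling chain of the B cell receptor, stood at 0.507 to 1.58 CPM in PreIR-NTN libraries, at 1.01 to 4.39 CPM in PreIR-GFP libraries and at 0.752 to 1.10 CPM in NonIR libraries, with a log2 fold change of −0.94 in PreIR-NTN against PreIR-GFP (adjusted p = 0.755). The B lineage factor Ebf1 had −0.65 (0.727), the adaptor Blnk −0.32 (0.738) and the scaffold Bank1 −0.92 (0.807). Ms4a1 had −0.45 (0.998). The separate marker sums for B cells reached 16.1 CPM in PreIR-GFP 5, where a list of lymph node stroma and venule markers, of which 5 of 6 genes were found, summed to 7.12 CPM against 0.461 to 1.23 CPM in the other 12 libraries. The part of such tissue in the results of PreIR-GFP 5 was not tested.

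Pigr, the epithelial receptor that carries IgA and IgM into saliva, was even across the libraries, at 399 to 620 CPM in PreIR-NTN, 415 to 696 CPM in PreIR-GFP and 506 to 614 CPM in NonIR libraries (log2 fold change −0.01 in PreIR-NTN against PreIR-GFP, SE 0.15, adjusted p = 0.998). Ccl28, the epithelial chemokine that draws IgA plasma cells, stood at 232 to 345 CPM in PreIR-NTN, 237 to 416 CPM in PreIR-GFP and 268 to 289 CPM in NonIR libraries (−0.14, SE 0.15, adjusted p = 0.971). Of 9 genes of antibody transport and Fc receptors 8 were tested and 0 passed the threshold in any comparison, and all 8 stood below 0 in PreIR-NTN against PreIR-GFP (median −0.41). Of these 3 had an unadjusted p under 0.05, against 52.7% of all genes below 0 and 3.73% lower at that p, and lowest in p were the IgG receptor gene Fcgr3 at −0.59 (0.667), the neonatal Fc receptor gene Fcgrt at −0.33 (0.738) and the inhibitory receptor gene Fcgr2b at −0.49 (0.806). Markers of macrophages, which carry Fc receptors, summed to 46.1 to 62.8 CPM in PreIR-NTN libraries, 72.1 to 156 CPM in PreIR-GFP libraries and 63.3 to 72.9 CPM in NonIR libraries, and their part in the Fc receptor values was not tested.

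Of 14 genes of attraction and survival 8 were tested, 0 passed the threshold in any comparison, and 6 stood below 0 in PreIR-NTN against PreIR-GFP, 3 of them at an unadjusted p under 0.05 (median −0.28), against 52.7% and 3.73% of all genes. Tnfsf13b, which encodes the B cell survival factor BAFF, stood at 2.29, 2.69, 1.95, 2.46 and 2.53 CPM in PreIR-NTN libraries, at 4.85, 4.35, 2.73, 3.03 and 5.58 CPM in PreIR-GFP libraries, and at 2.39, 2.61 and 2.12 CPM in NonIR libraries. Both PreIR-NTN and NonIR lay below every PreIR-GFP library. The separation was narrow, since PreIR-NTN 2 stood at 2.69 CPM and PreIR-GFP 3 at 2.73 CPM. Of all genes tested, 0.72% were lower without overlap in PreIR-NTN against PreIR-GFP, and 2.87% were higher in PreIR-GFP against NonIR. The log2 fold change of Tnfsf13b was −0.78 in PreIR-NTN against PreIR-GFP (SE 0.21, edgeR adjusted p = 0.435). Cxcl13, the chemokine of B cell follicles, had −1.71 (adjusted p = 0.620) and −0.83 without PreIR-GFP 5, its highest library at 4.81 CPM. Of 10 genes of rearrangement and class switching 6 were tested, Rag1, Rag2 and Dntt had 0 reads in all 13 libraries, and 0 passed the threshold in any comparison.

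Library totals lay between 9724301 and 16771003 reads. Markers of the submandibular acinar cell were abundant in every library, at 51536 to 213745 CPM in sum, with the lowest value in PreIR-GFP 1, the library with the most Igha, and the part of gland composition in its antibody values was not tested. Skeletal muscle markers summed to 152 CPM in PreIR-GFP 2 and to 1.38 to 3.10 CPM in the others.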

How the data were processed

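The authors deposited raw read counts per gene for 13 libraries (SMART-Seq v4 cDNA and Nextera XT tags, NextSeq 500, per the labels' protocols) and a second table with a normalised signal per gene, found here to be the counts times 1 constant for each library. The submitters' processing notes name STAR 2.5.2a and GRCm38.p3 (mm10), and also DESeq2, edgeR and limma. No source used here gives the counting tool, its strand setting or its treatment of reads with several matches, so overlapping and antisense genes cannot be told apart. The reference is C57BL/6J and the strain label is CH3, and the loss of reads from other alleles, from V-to-J joints or from mutated variable genes was not tested. The count table has 48709 genes and 24 spike-in or transgene entries (2.46e-05% of reads), which were left out.

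From the counts, genes were kept by filterByExpr (14727 genes), scaled by TMM and tested with edgeR 4.0.16 (quasi-likelihood, robust, R 4.3.3) on all 13 libraries with 1 mean per group. Two-sided p-values were adjusted by Benjamini-Hochberg across these genes and read at 0.05, and each standard error was derived from its fold change and F. Every adjusted p in the text is from this test. Levels are TMM-scaled CPM. Intervals are 95% Wilson and cover counting error only, because PCR copies carry no molecular identifier, and a count of 0 allows 3 reads. Kappa and heavy variable reads were compared at 115 and 66 reads. No 2 libraries agreed within sampling noise.

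The members, companion lists and tests were chosen with earlier results of these data known. Named were all constant genes, the 10 variable genes of highest mean CPM, the leading variable gene of each library, the 3 variable genes of lowest p per comparison, and members of companion lists by p. Genes outside that rule, such as those without overlap, were chosen after their values were seen. Alternatives were other scalings and filters, DESeq2 1.42.0, limma 3.58.1 (voom, and trend on the deposited signal), a replicate block, fits of 2 groups and leaving out libraries. Simulated data were used to test the edgeR step. Sequences and coordinates are from GENCODE M21. Some genes of the companion lists are not reported here.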

Additional observations from a re-analysis of the deposited data

Results flagged for a closer look

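In 6 of 74 groups of values examined, 1 library stood further from the rest than Dixon's 95% criterion allows. Chance flags about 1 in 20 such groups. All 6 were among the 5 libraries of PreIR-GFP. They share libraries, so they are not independent. PreIR-GFP 4 was low for Igkc, at 6.54 on the log2(CPM + 0.5) scale against 8.821 to 9.5 in the other PreIR-GFP libraries. The same library was low for Igkv12-41, at 1.41 against 3.93 to 4.42, and for Igkv12-44, at 1.37 against 3.26 to 3.91. PreIR-GFP 2 was high for Ighg3, at 3.20 against −0.66 to 0.35. PreIR-GFP 1 was high for the effective number of kappa variable genes, at 32.0 against 22.6 to 25.0, and for the number of kappa genes expected in 115 reads, at 42.5 against 37.2 to 38.3.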

How the results depend on the processing

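In PreIR-NTN against PreIR-GFP the number of antibody genes past the threshold was 0 with edgeR, 1 with no filter (Igkv14-111), 8 with DESeq2 (Ighv1-5, Ighv2-9-1, Ighv5-6, Igkv14-111, Igkv4-55, Igkv4-61, Igkv8-19 and Igkv8-21), and 0 to 5 with 1 library left out. The 5 without PreIR-GFP 4 were Ighg2c, Ighv2-9-1, Ighv3-4, Igkv14-111 and Igkv4-55, and without NonIR 2 it was Igkv4-61. Of all genes, the calls were 3 of 14727 with edgeR, 10 of 28532 with no filter and 35 of 19989 with DESeq2. They were 11 of 14644 without PreIR-GFP 4 and 4 of 15202 without NonIR 2. The log2 ratio of summed constant genes in PreIR-NTN against NonIR was 0.11 as a ratio of medians and −0.99 to 0.10 with 1 library left out. The effective number taken over kappa in place of heavy genes was 15.8 in PreIR-NTN, 25.4 in PreIR-GFP and 24.0 in NonIR, and the exponential of Shannon entropy for heavy genes in NonIR was 16.9. With switched isotypes alone in the total, the Igha share was 98.8% in PreIR-GFP and 98.1% in NonIR.

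Some single genes turned direction, and the cause was not tested. In PreIR-NTN against PreIR-GFP, Iglc3 was −0.048 with no TMM, −0.15 with the replicate block, −0.20 with limma-voom and −0.071 with limma-trend. Igkv8-34 was −0.63 with the replicate block, −0.012 without PreIR-GFP 1 and 2, −1.12 with limma-voom and −0.15 with limma-trend. Pigr was 0.0009019 with limma-trend, and without PreIR-GFP 1 and 2 Ccl28 was 0.063 and Ighg3 1.84. In PreIR-NTN against NonIR, Ighg3 was −0.019 with limma-voom, and Iglc2 was 0.085 with the replicate block and 0.075 with limma-voom. In PreIR-GFP against NonIR, Ighg1 was 0.22 with limma-voom, and without PreIR-GFP 1 and 2 Ighg3 was −0.77 and Iglc1 −0.53.

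With 1 library left out, the fold changes in PreIR-NTN against PreIR-GFP ranged from −2.94 to 2.00 for Ighg3, −0.56 to 0.28 for Iglc3, −1.54 to 2.19 for Igkv8-34, −1.70 to 0.26 for Ms4a1 and −0.068 to 0.11 for Pigr. In PreIR-NTN against NonIR they ranged from −1.43 to 0.48 for Igha, −1.13 to 0.75 for Igkc, −0.42 to 0.012 for Ighm, −0.042 to 0.89 for Ighd, −0.43 to 1.35 for Ighg2b, −1.44 to 1.88 for Ighg3, −1.76 to 0.30 for Iglc1 and −0.61 to 0.60 for Iglc2. In PreIR-GFP against NonIR they ranged from −1.29 to 5.32 for Ighg1, −0.94 to 2.32 for Ighg3 and −0.54 to 1.99 for Iglc1. The upper value for Ighg1 was fitted against 0 reads, because all NonIR reads of this gene came from NonIR 1. It is therefore not a measured fold change.

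Same-numbered libraries did not deviate together: 3 of 11 pairs had a correlation over 0.1 (−0.428 to 0.279), and 1 of 13 libraries correlated best with its own number. The fit with the replicate block called 0 members in each comparison, and in PreIR-NTN against PreIR-GFP 41 members, against 62 without it, were lower at an unadjusted p under 0.05. In PreIR-NTN against NonIR these counts were 7 and 12. Among all 14727 genes, 692 and 878 were at that p with the block in these comparisons, in either direction. Without the block they were 896 and 1174. Depth limits the scarce genes, such as the joining segments, at 38 to 74 reads each over 13 libraries, and the IgG genes, at 50 to 288 reads.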
